A study of Rattus norvegicus with 6 samples.

Results

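The 10 genes of the mechanistic target of rapamycin complex 1 (mTORC1) pathway followed here in rat liver were Mtor, Rptor, Rictor, Tsc1, Tsc2, Rheb, Rps6kb1, Eif4ebp1, Eif4ebp2 and Ddit4. They were taken by symbol from a table of 33022 loci, and each of the 10 symbols was found at 1 locus. The rule that took them used their names and no measured value, but the names were chosen with earlier results of these data known. Male obesity-prone Sprague Dawley rats ate either a control diet (CD) or a Western diet (WD) rich in milk fat and sucrose for 2 weeks, were fasted overnight and were refed before the left liver lobe was taken. For each diet, total RNA was sequenced together with RNA from the light fraction of a sucrose gradient (mRNAs bound to 3 or fewer ribosomes) and from the heavy fraction (4 or more ribosomes). RNA of 3 rats was pooled for each of these 6 combinations, so each was measured in 1 library, no value has a replicate and no difference between the diets could be tested.

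mTORC1 is a protein kinase complex that promotes protein synthesis when amino acids and insulin are available. Its kinase subunit is the product of Mtor and its substrate-binding subunit is raptor, encoded by Rptor. Rictor encodes the corresponding subunit of the second complex, mTORC2, which phosphorylates Akt. The small GTPase Rheb activates mTORC1, the TSC1/TSC2 complex switches Rheb off, and the stress-induced protein REDD1, the product of Ddit4, acts through TSC1/TSC2 to restrain the kinase. Active mTORC1 phosphorylates the ribosomal protein S6 kinase encoded by Rps6kb1 and the 4E-binding proteins encoded by Eif4ebp1 and Eif4ebp2. Unphosphorylated 4E-binding proteins hold the cap-binding factor eIF4E and prevent initiation, and mRNAs that start with a terminal oligopyrimidine (TOP) tract are among the most sensitive to this control. In the liver, refeeding after a fast is a well known stimulus of the pathway. The files measure mRNA and its distribution across the gradient, not the phosphorylation of these proteins.

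Because a TOP tract begins at the first base of an mRNA, the 5′ ends of the members were read from the RefSeq promoters of the assembly GRCr8, of which 8 of the 10 symbols had an entry. Rptor and Eif4ebp1 were not matched. The windows of Mtor and Tsc2 are shown for their high levels in the heavy relative to the light fraction, that of Eif4ebp2 for the lowest such ratio and that of Rheb for the highest ratio of ribosome density between the diets. Capitals mark the first 5 bases of the annotated transcript after 15 bases of upstream sequence.
Mtor (GRCr8, chr5:164167970-164167994, plus strand): gcggcggtaccggctCAGGCggcgg
Tsc2 (GRCr8, chr10:14160230-14160254, minus strand): tgctctgggccggggGTGTGcgccc
Rheb (GRCr8, chr4:11013368-11013392, plus strand): gagcaagaggcagccGCGCCcgccg
Eif4ebp2 (GRCr8, chr20:29942913-29942937, minus strand): gcttccggtagtcatCGTTGccgct
The transcripts of Mtor and Eif4ebp2 began with C but went on to a purine within the capitals, and those of Tsc2 and Rheb began with G. A C at the annotated start followed by 4 bases that were each C or T was found in 0 of the 8 matched members on the strand of transcription, against 881 of 33469 RefSeq promoters (2.63%). The absence says only that these letters are not at the start listed, and Rheb and other members may have further starts.

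The values are FPKM, fragments per kilobase of transcript scaled to the mapped fragments of a library, which allow levels of different genes to be set side by side per unit of length. The number of fragments behind them was inferred from the values for 8 members, all but Mtor and Tsc2, and gives an exact 95% counting interval for each ratio. Such an interval compares pooled libraries and covers counting error only, not the variation between rats. Over the loci for which fragment numbers were found, the libraries held between 215227 fragments in the CD light fraction and 487469 in the WD light fraction, and the median per locus compared was 8 in the CD heavy and 22 in the WD light fraction. A locus was compared where it carried a symbol and averaged 1 FPKM or more, which held for all 10 members and for 10201 loci in all. The 8 hepatocyte markers were above 0 in every library, with summed levels from 35825 to 119384 FPKM. In bulk tissue, fewer cells of a type and less RNA per cell cannot be told apart.

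The members differed widely in level. By the mean over the 6 libraries, Eif4ebp2 was highest at 48.3 FPKM, above 88.4% of the loci compared, followed by Rheb at 31.8, Eif4ebp1 at 16.2 and Rps6kb1 at 10.1 FPKM. Ddit4 at 9.82 and Mtor at 9.57 FPKM stood next, and Tsc2 at 5.44, Rptor at 5.11 and Rictor at 4.24 FPKM below them. Tsc1 was lowest at 2.35 FPKM, above 18.5% of the loci. The order in total RNA was the same under both diets, but the bounds that Cufflinks gives for each value overlapped between every pair of neighbours in that order. The bounds of a gene also overlapped across all 6 libraries for every member but Eif4ebp2.

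**Figure D1:**
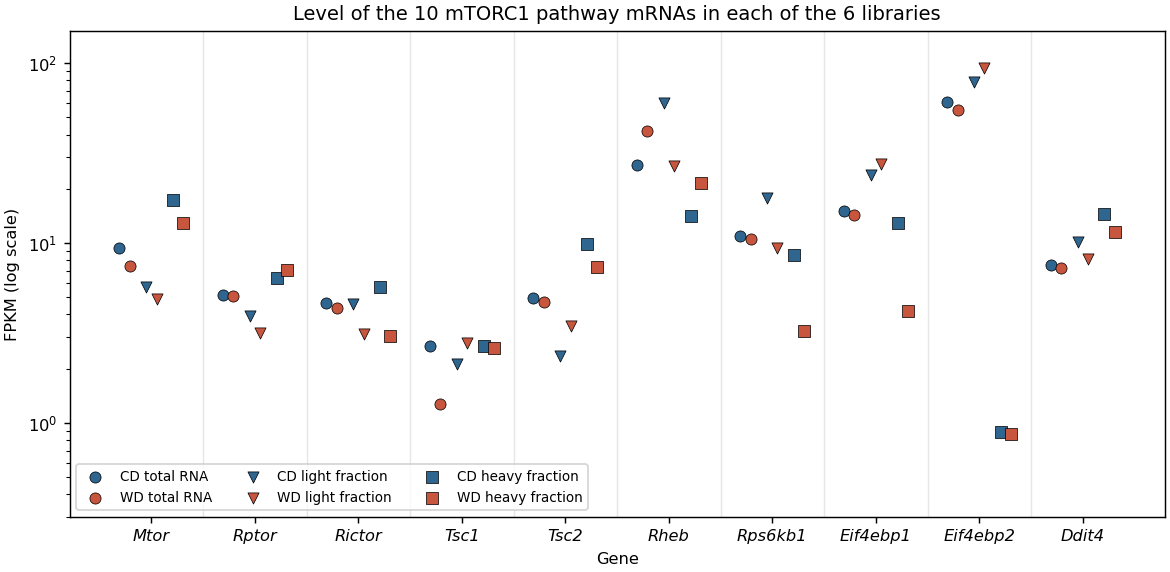
FPKM (log scale) of each gene in the 6 libraries, with circles for total RNA, triangles for the light fraction, squares for the heavy fraction, blue for CD and red for WD. Eif4ebp2 had the highest level in total RNA and in the light fraction of both diets and the lowest in the heavy fraction, at 0.888 FPKM in CD and 0.866 FPKM in WD.

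The first comparison, of total RNA, asked whether the diet altered mRNA abundance of the pathway. In all, 8 members lay within a ratio of 0.75 to 1.5 between WD and CD. Rheb was at 27.0 FPKM in CD and 41.8 FPKM in WD, a ratio of 1.55 with a counting interval of 0.927 to 2.62. Tsc1, whose product stabilizes TSC2, was at 2.66 FPKM in CD and 1.27 FPKM in WD, a ratio of 0.475 (0.129 to 1.48) that rested on 11 and 5 fragments. Thus 1 of 10 members reached a ratio of 1.5, as did 17.7% of all loci compared, and 1 of 10 was at 0.75 or less, as were 22.7% of all loci. The counting interval of the ratio included 1 for all 8 members that had one, and it lay outside 1 for 7.06% of the loci with fragment numbers.

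The remaining members were close to equal in total RNA. Mtor was at 9.35 FPKM in CD and 7.44 FPKM in WD (ratio 0.795) and Tsc2, the GTPase-activating partner of TSC1, at 4.96 and 4.69 FPKM (0.944). Rptor was at 5.11 and 5.06 FPKM, and Rictor at 4.63 and 4.32 FPKM. Of the mTORC1 substrates, Rps6kb1 was at 10.9 and 10.5 FPKM, Eif4ebp1 at 14.9 and 14.2 FPKM, and Eif4ebp2 at 60.4 and 54.9 FPKM. Ddit4 was at 7.48 and 7.22 FPKM. Precision was best for Eif4ebp2, whose 107 and 93 fragments gave an interval of 0.681 to 1.21, and was poor for Eif4ebp1, where 11 and 10 fragments allowed 0.362 to 2.47. The median change of the 10 members was -0.08 on the log2 scale, beside 0.02 for all loci. In WD, 9 members were lower, but with the libraries brought to an equal sum 6 were higher and 4 lower, so no common direction can be read.

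**Figure D2:**
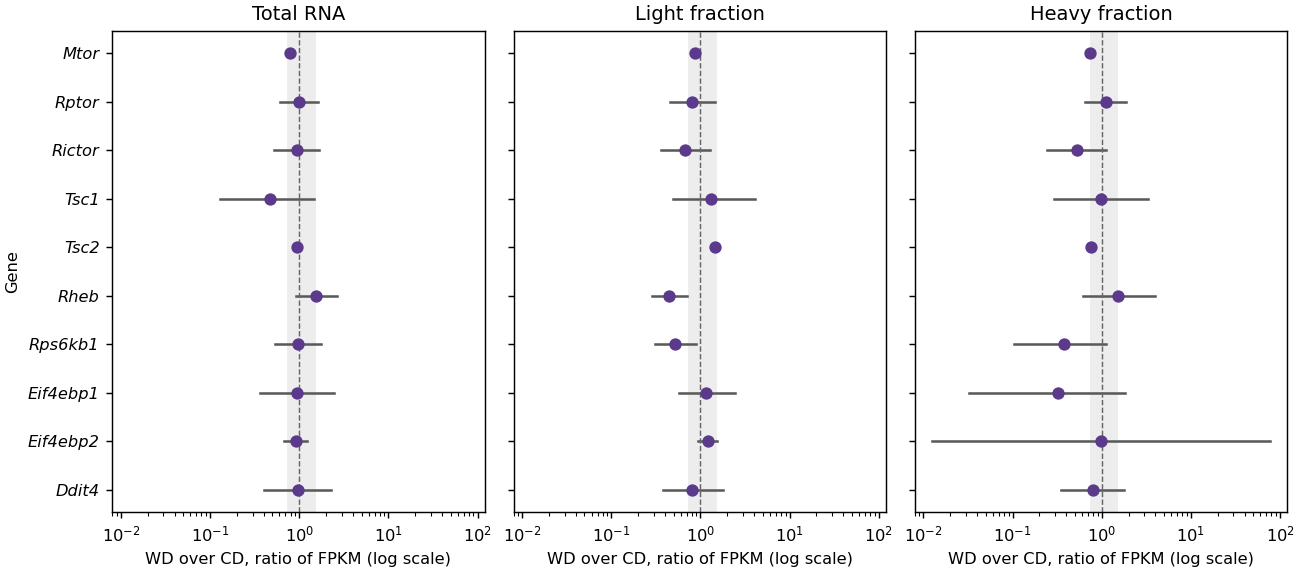
Ratio of FPKM, WD over CD (log scale), for each gene in total RNA, the light fraction and the heavy fraction, with the exact 95% counting interval as a line where fragment numbers were found and the range 0.75 to 1.5 in grey. In the light fraction the intervals of Rheb and Rps6kb1 lie below 1, and every other interval includes 1.

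In the light fraction, Rheb and Rps6kb1 were lower after the WD. Rheb was at 59.9 FPKM in CD and 26.9 FPKM in WD, a ratio of 0.449 (0.283 to 0.711). Rps6kb1, which encodes the kinase that phosphorylates ribosomal protein S6, was at 17.8 and 9.33 FPKM, a ratio of 0.523 (0.308 to 0.893). These were the 2 of 8 members whose interval lay outside 1, a position held by 17.6% of the loci with fragment numbers. Rictor was the third member at 0.75 or less, at 4.59 FPKM in CD and 3.11 FPKM in WD, but its ratio of 0.678 had an interval of 0.365 to 1.28. None of the 10 members reached 1.5, against 25.9% of all loci, and 3 of 10 were at 0.75 or less, against 26.8%.

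The 4E-binding protein mRNAs had light-fraction ratios above 1, a direction that turned when the libraries were rescaled, to log2 changes of -0.15 for Eif4ebp1 and -0.089 for Eif4ebp2. Eif4ebp1 was at 23.8 FPKM in the CD light fraction and 27.4 FPKM in the WD light fraction (ratio 1.15, 0.572 to 2.47), and Eif4ebp2 at 78.5 and 94.3 FPKM (1.20, 0.944 to 1.54). The TSC genes were also higher by value, Tsc1 at 2.12 and 2.77 FPKM and Tsc2 at 2.34 and 3.45 FPKM, where the ratio of 1.47 for Tsc2 stood just under 1.5. Mtor was at 5.66 and 4.86 FPKM, Rptor at 3.94 and 3.17 FPKM, and Ddit4 at 10.1 and 8.13 FPKM. The WD light library stood apart from the other 5 in depth and in the summed level of the erythroid markers, which was 414 FPKM there and between 16.8 and 52.6 FPKM elsewhere. The part of either in the light-fraction ratios was not tested. Rescaling the libraries to the same sum lowered the median light-fraction change of all loci by 0.31 on the log2 scale, to -0.29. Then 6 members were at 0.75 or less, but the share of all loci at that limit was not counted after rescaling.

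In the heavy fraction, 8 of the 10 members were lower by value after the WD, and 4 were at a ratio of 0.75 or less, against 25.8% of all loci. Eif4ebp1 was at 12.8 FPKM in CD and 4.17 FPKM in WD, a ratio of 0.325, but these values rested on 6 and 2 fragments and the interval ran from 0.0321 to 1.82. Rps6kb1 was at 8.59 and 3.22 FPKM, a ratio of 0.375 (0.105 to 1.12), and Rictor at 5.71 and 3.04 FPKM, a ratio of 0.532 (0.240 to 1.12). The fourth was Mtor at 17.3 and 12.8 FPKM, whose ratio of 0.744 lay just inside the limit, with Tsc2 just outside it at 9.83 and 7.37 FPKM (ratio 0.7504).

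Rheb was the highest ratio in the heavy fraction, at 14.1 FPKM in CD and 21.4 FPKM in WD (1.52, 0.612 to 3.98), and it reached 1.5 neither with a pseudocount of 1 FPKM nor after rescaling. Rptor was at 6.34 and 7.02 FPKM, Tsc1 at 2.66 and 2.60 FPKM, and Ddit4 at 14.5 and 11.5 FPKM. Together 1 of 10 members reached 1.5, as did 21.7% of all loci, and 4 of 10 were at 0.75 or less, against 25.8%. After rescaling this split was 0 and 5, with no count of all loci to set beside it. The interval included 1 for all 8 members that had one and lay outside 1 for 7.41% of loci. The median change was -0.37 on the log2 scale for the members and -0.02 for all loci.

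The distribution of an mRNA between fractions within a diet was then expressed as its level in the heavy over that in the light fraction. As FPKM is scaled within each library, this ratio places an mRNA relative to the other mRNAs and is not a share of its molecules. By this measure Mtor, Tsc2 and Rptor had ratios of at least 1.5 under both diets. The 4E-binding protein and S6 kinase mRNAs had ratios of 0.75 or less under both, and Rheb in CD only. These are positions relative to the limits and not separate groups, as Ddit4 at 1.43 in CD stood close to Rptor at 1.61. In CD the intervals of Rptor and Eif4ebp1 included 1, and the counts given below were near the shares of all loci.

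Mtor, a very large mRNA, was at 5.66 FPKM in the light and 17.3 FPKM in the heavy fraction of CD, a ratio of 3.05, and at 4.86 and 12.8 FPKM in WD, a ratio of 2.64. Tsc2 was at 2.34 and 9.83 FPKM in CD, a ratio of 4.19, and at 3.45 and 7.37 FPKM in WD, a ratio of 2.14. Their Cufflinks bounds were wide, so that even the CD fractions of Tsc2 overlapped from 0 to 5.14 and from 0 to 21.1 FPKM. For Rptor the ratio was 1.61 in CD (0.885 to 2.99) and 2.21 in WD (1.34 to 3.66), where the interval lay above 1.

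Eif4ebp2 was the extreme of the 10. It was at 78.5 FPKM in the light and 0.888 FPKM in the heavy fraction of CD, from 95 fragments against 1, and at 94.3 and 0.866 FPKM in WD, from 248 fragments against 1. Its light over heavy ratio was thus 88.5 in CD (15.5 to 3530) and 109 in WD (19.3 to 4314), and the diets did not differ beyond this error. Total RNA held 60.4 and 54.9 FPKM, so the mRNA was plentiful in the liver under both diets. Among 953 loci that had at least 50 light-fraction fragments in both diets, 1 locus, Cystm1, had a lower heavy over light ratio than Eif4ebp2, and it did so under both diets. Of all loci compared, including those of few fragments, 137 lay lower in CD (1.34%) and 204 in WD (2.00%).

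**Figure D3:**
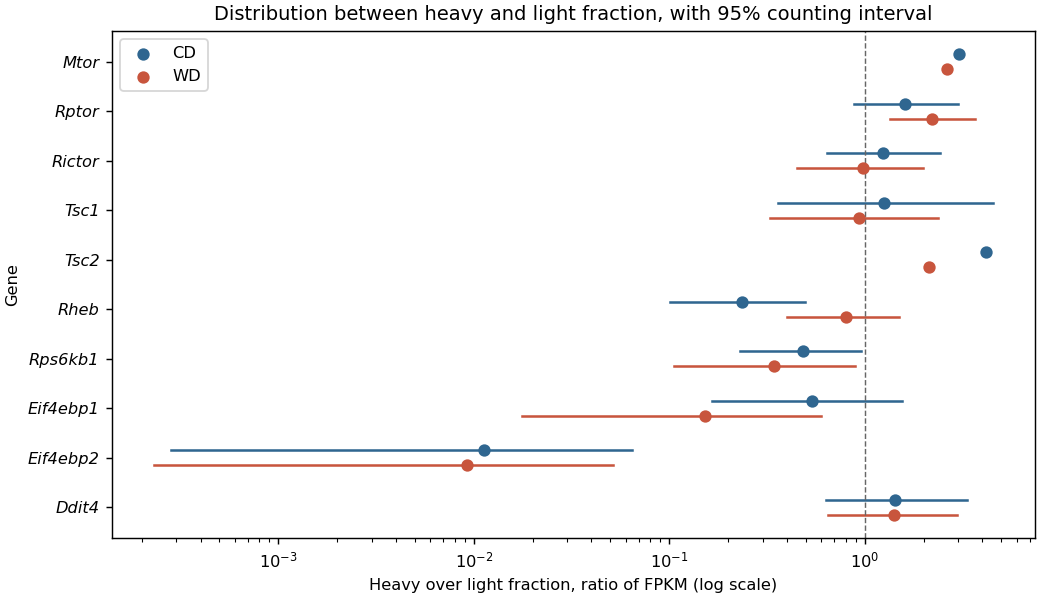
Level in the heavy over the light fraction (ratio of FPKM, log scale) for each gene in CD (blue) and WD (red), with the exact 95% counting interval as a line where fragment numbers were found. Eif4ebp2 lies near 0.0113 in CD and 0.00919 in WD, far below the other 9 genes, and Mtor and Tsc2 lie above 2 in both diets.

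The paralog Eif4ebp1 had its higher level in the light fraction as well, though less far. Its heavy over light ratio was 0.537 in CD (0.165 to 1.55) and 0.152 in WD (0.0176 to 0.599), and that of WD lay below 1. The ratio of Rps6kb1 was 0.481 in CD (0.230 to 0.956) and 0.345 in WD (0.105 to 0.890), below 1 under both diets. Rheb had a ratio of 0.236 in CD (0.101 to 0.492) and of 0.798 in WD (0.401 to 1.498), so that its interval lay below 1 only in the CD libraries. Rictor (1.24 in CD and 0.977 in WD), Tsc1 (1.25 and 0.939) and Ddit4 (1.43 and 1.41) had intervals that included 1 under both diets.

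In counts, 3 of 10 members had a heavy over light ratio of at least 1.5 in CD, against 32.9% of all loci, and 4 were at 0.75 or less, against 36.6%. In WD these were 3, against 31.4%, and 3, against 38.5%. The interval lay outside 1 for 3 of 8 members in CD and 4 of 8 in WD, where the shares of all loci were 29.3% and 36.5%. With total RNA as the denominator, 2 members were at 0.75 or less in CD and 5 in WD. The share of all loci was not counted by that measure, so these counts are not read as a result about the members. Eif4ebp2 kept its place by that measure, with a heavy over total ratio of 0.0147 in CD and 0.0158 in WD, while Mtor was at 1.85 and 1.73 and Tsc2 at 1.98 and 1.57.

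Ribosome density was compared between the diets as the heavy over light ratio in WD divided by that in CD. Rheb had the highest value at 3.38, with an interval of 1.20 to 9.91, and was the 1 member of 8 whose interval lay outside 1, a position held by 9.78% of the loci with fragment numbers. It rested on 41 and 9 fragments in the CD light and heavy fractions and on 40 and 14 in those of WD. Measured against total RNA, Rheb showed no such value. Its heavy over total ratio was 0.524 in CD and 0.513 in WD, a ratio between the diets of 0.980, whereas its light over total ratio was 2.22 in CD and 0.643 in WD. Between the diets, Rheb thus had like ratios in total RNA (1.55) and the heavy fraction (1.52) and the opposite direction in the light fraction (0.449). The WD light library stood apart in depth and erythroid markers, and the part of either in the values of Rheb was not tested.

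Eif4ebp1 had the lowest ribosome density ratio at 0.283, with an interval of 0.0258 to 1.95. Its ratio stayed low against total RNA at 0.342, from 6 heavy-fraction fragments in CD and 2 in WD. Tsc2 was at 0.510 against the light fraction and at 0.795 against total RNA. Rps6kb1 was at 0.717 (0.180 to 2.51) and at 0.389 against total RNA.

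The other members lay between the limits. Rptor was at 1.37 (0.615 to 3.06), Ddit4 at 0.986 (0.314 to 3.06), Mtor at 0.867, Eif4ebp2 at 0.813 (0.0103 to 64.5), Rictor at 0.786 (0.284 to 2.14) and Tsc1 at 0.749 (0.148 to 3.77). On the log2 scale with its pseudocount, Tsc1 stood just outside the limit of 0.75. With total RNA as the denominator Tsc1 was at 2.05 and Rictor at 0.570, so by that measure these took the places of Rheb and Tsc2 past the limits, while Rps6kb1 and Eif4ebp1 were past them by both. The study's methods set these limits for CD over WD. In that order, against the light fraction, Rptor at 0.727 would be past the limit of 0.75 and Rps6kb1 at 1.39 would lie between the limits. As 1 heavy-fraction fragment stood behind each diet, the interval of Eif4ebp2 was very wide, and ribosome density ratios from 0.0103 to 64.5 could not be told apart by these counts.

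Over the 10 members, 1 reached a ribosome density ratio of 1.5, against 27.7% of all loci, and 3 were at 0.75 or less, against 36.1%. The median change was -0.32 on the log2 scale, beside -0.02 for all loci, and 8 members were lower in WD. After rescaling to the same sum the median of all loci rose by 0.30. Then 2 members reached 1.5 and 2 were at 0.75 or less, with no count of all loci to set beside these. As 5 members were then higher and 5 lower, the direction over the members depended on the scaling.

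**Figure D4:**
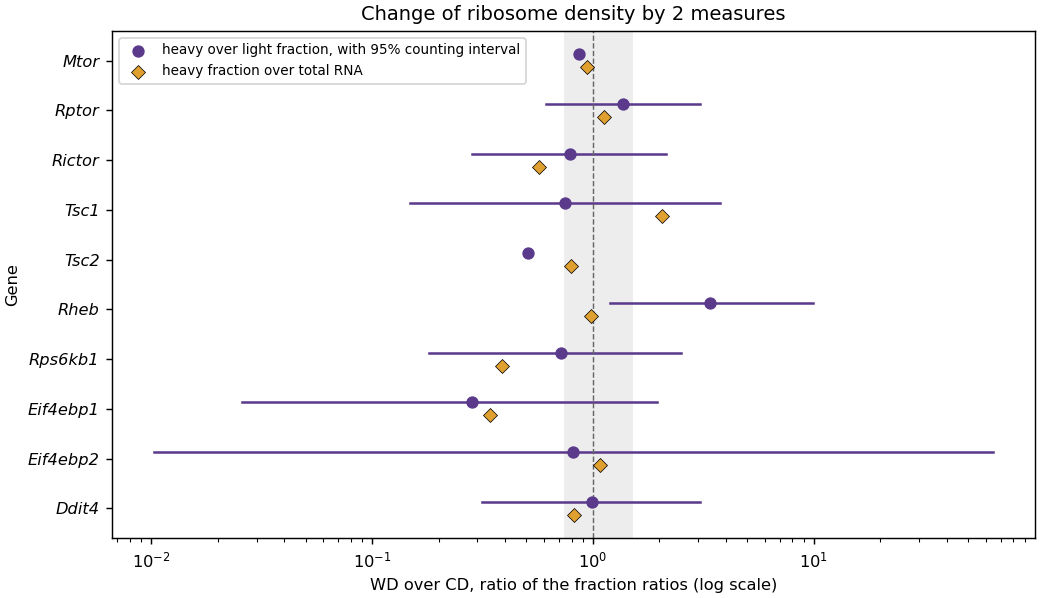
Ratio of ribosome density, WD over CD (log scale), for each gene, measured as heavy over light fraction (purple circles, with the exact 95% counting interval as a line where fragment numbers were found) and as heavy fraction over total RNA (yellow diamonds), with the range 0.75 to 1.5 in grey. Rheb lies at 3.38 by the first measure and 0.980 by the second, while Eif4ebp1 lies at 0.283 and 0.342.

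Further genes of the pathway were examined from 7 lists of 79 genes, of which 73 matched a symbol and 65 averaged 1 FPKM or more. For abundance, 8 of the 65 had a ratio of at least 1.5, against 17.7% of all loci, and 11 of at most 0.75, against 22.7%, with a median log2 change of 0.01. For ribosome density, 17 were at 1.5 or more, against 27.7% of all loci, and 21 at 0.75 or less, against 36.1%, with a median of 0.12. Of 47 with an interval for ribosome density, it lay above 1 for 1 and below 1 for 2, beside 9.78% outside 1 over all loci. The counts over all 65 genes were thus near or below those shares, and the counts of each list that follow, from 5 to 13 genes each, are to be read against them.

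Among the 7 other subunits and assembly factors of the mTOR complexes, ribosome density was at 0.75 or less for 4 (36.1% of all loci) and reached 1.5 for 0 (27.7% of all loci), and abundance was at 1.5 or more for 1 and at 0.75 or less for 1. Akt1s1, which encodes the inhibitory subunit PRAS40, had the highest density change of this list at 0.38 on the log2 scale. Telo2, whose product helps to assemble the kinase, had the lowest at -1.66, from 1 CD light-fraction fragment. Deptor, an inhibitory subunit, was at 3.77 FPKM in the light and 18.2 FPKM in the heavy fraction of CD and at 5.63 and 21.7 FPKM in WD. Under both diets 5 of the 7 genes were higher in the heavy fraction and 2, Prr5 and Mapkap1, in the light fraction. Prr5 was at 3.98 FPKM in the light and 1.01 FPKM in the heavy fraction of CD and at 2.04 and 0.245 FPKM in WD. Mapkap1 was at 10.0 and 4.98 FPKM in CD and at 15.3 and 5.27 FPKM in WD.

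The TSC complex and its upstream kinases had 12 genes compared, of which 3 were at 1.5 or more (27.7% of all loci) and 3 at 0.75 or less (36.1%) in ribosome density. Abundance was at 0.75 or less for 4 (22.7% of all loci) and at 1.5 or more for 0 (17.7%), with a median log2 change of -0.22. Akt1, an insulin-stimulated kinase that inhibits TSC2, was at 24.5 FPKM in CD and 21.4 FPKM in WD, and Prkaa2, a catalytic subunit of the AMP-activated kinase that stimulates TSC2, at 41.0 and 34.7 FPKM. The extremes of density, Prkag2 and Tbc1d7, were each listed at 0 in 1 heavy fraction and had at most 5 fragments in any library, so no fold is given.

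Of 11 Rag GTPase and Ragulator genes, which place mTORC1 on the lysosome when amino acids are present, 5 reached 1.5 in ribosome density (27.7% of all loci) and 3 were at 0.75 or less (36.1%). Slc38a9, a lysosomal arginine sensor, had a counting interval of abundance above 1, the 1 gene of 47 with an interval that did, where 7.06% of all loci had one outside 1. It was at 1.64 FPKM in CD and 4.92 FPKM in WD, a log2 change of 1.53 from 8 and 23 fragments. Lamtor2 and Lamtor3, the extremes of density, were listed at 0 in at least 1 heavy fraction. Lamtor5 had the 1 density interval above 1, with a log2 change of 1.28. As with Rheb, its light-fraction level differed, at 119 FPKM in CD and 48.6 FPKM in WD, while its heavy-fraction level was 109.5 and 108.8 FPKM.

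Of 13 genes of the GATOR complexes and amino acid sensors, 5 reached 1.5 in density (27.7% of all loci) and 3 were at 0.75 or less (36.1%). Wdr24 was highest with a log2 change of 1.54 from at most 9 fragments in a library, and Itfg2, the lowest, was listed at 0 in the CD light fraction. In abundance, Sec13 was highest at 1.36 on the log2 scale, from 4 fragments in CD and 10 in WD. Sesn3 was lowest at -2.18, from 5 fragments in CD and 1 in WD.

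In the S6 kinase branch, Rps6, which encodes the S6 protein itself, was listed at 0 in all 6 libraries. The paper assessed phosphorylation of this protein in livers of these rats, so the 0 is not read as absence of the mRNA. The reason for it was not tested. Rps6kb2, the paralog of Rps6kb1, was at 0.886 FPKM in the CD and 2.60 FPKM in the WD heavy fraction, the opposite order to Rps6kb1, with a density change of 1.72 on the log2 scale and no fragment numbers. Eef2k, the elongation factor 2 kinase, was lowest at -1.43, from 1 CD light-fraction fragment. In the eIF4E branch, 2 of 9 genes reached 1.5 in density (27.7% of all loci) and 3 were at 0.75 or less (36.1%). Eif4e, the factor that the 4E-binding proteins hold, was at 28.7 FPKM in CD and 22.0 FPKM in WD total RNA. Eif4g2 had a density interval below 1, with a log2 change of -0.88, and its light-fraction level exceeded its heavy-fraction level under both diets (88.2 and 24.4 FPKM in CD, 99.0 and 14.8 FPKM in WD). Eif4g3 and Eif4g1 were the extremes of this list, at 1.55 and -3.87.

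Of 8 other inhibitors and substrates, 1 reached 1.5 in density (27.7% of all loci) and 4 were at 0.75 or less (36.1%), and abundance passed neither limit for any of them (17.7% and 22.7% of all loci). Fkbp1a, encoding the rapamycin-binding protein FKBP12, was highest at 0.86, and Tfe3, a transcription factor under mTORC1 control, was lowest at -1.91 from 3 heavy-fraction fragments in CD and 1 in WD. Fkbp8 had an interval below 1 with a log2 change of -1.10. Its light-fraction level was 42.3 FPKM in CD and 97.4 FPKM in WD, while its heavy-fraction level was 133 and 142 FPKM.

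**Figure D5:**
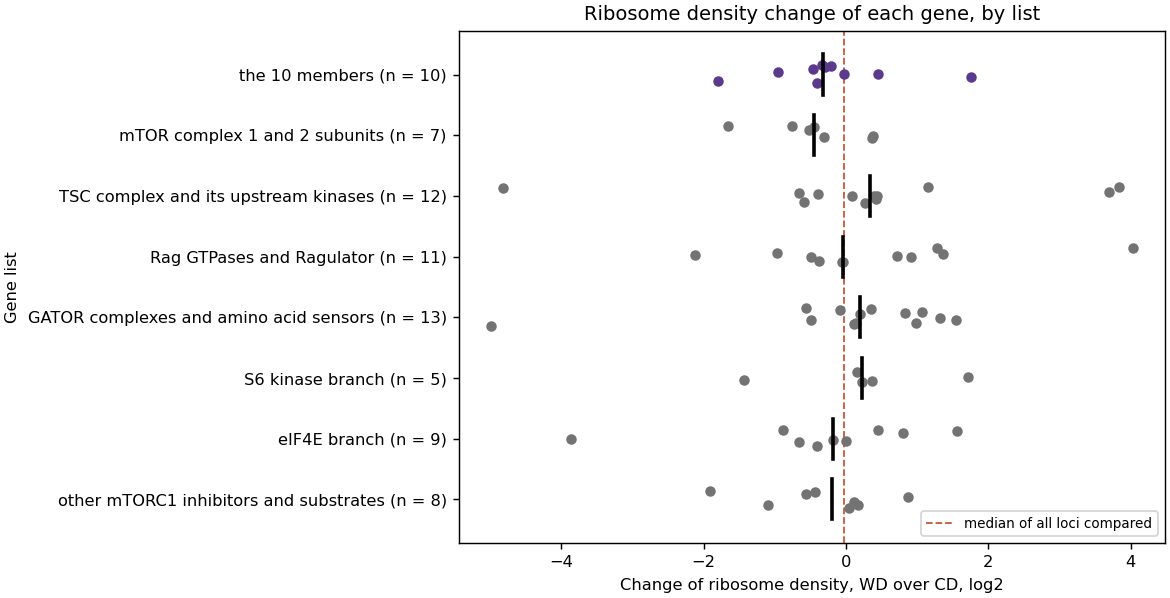
Change of ribosome density, WD over CD (log2), of each gene, for the 10 members (purple) and the 7 further lists (grey), with the median of each list as a black bar and the median of all loci compared as a dashed line. The medians lie between -0.45 for the other mTOR complex subunits and 0.33 for the TSC complex and its upstream kinases, within the scatter of each list.

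The loci whose pattern over the 6 libraries was closest to that of 3 members were sought by the root mean square difference of log2 levels, each centred on its own mean. For Mtor the closest of 9750 loci were Trrap at 0.0589, Pelp1 at 0.0740 and Plxna2 at 0.0918, where the median locus was at 0.877. Trrap, which encodes another very large member of the same kinase-like family, was at 4.57 and 14.9 FPKM in the light and heavy fractions of CD and at 4.44 and 11.1 FPKM in WD. For Eif4ebp1 the closest of 3804 loci that averaged 10 FPKM or more were Snx13 at 0.0975, Amd1 at 0.163 and AABR07015057.1 at 0.164. Amd1, which encodes an enzyme of polyamine synthesis, went from 9.25 FPKM in the CD to 2.26 FPKM in the WD heavy fraction, beside 12.8 and 4.17 FPKM for Eif4ebp1, from 6 and 2 fragments. For Eif4ebp2 the distances were larger, with the median locus at 3.06. The nearest, Bloc1s2 at 0.612, Snrpe at 0.678 and AABR07035832.1 at 0.706, were each listed at 0 in both heavy fractions. Eif4ebp2 had 1 fragment in each of these, so its distances depend on the 0.1 FPKM added before the log2. These are descriptions over 6 libraries that share animals and gradients.

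Markers of other liver cell types were detected under both diets. Kupffer cell and macrophage markers summed to 174 FPKM in CD and 229 FPKM in WD total RNA, endothelial markers to 92.4 and 113 FPKM, and stellate cell markers to 53.9 and 63.0 FPKM. Of 5 adipocyte markers, 4 were listed at 0 in all 6 libraries and 1 was above 0 in every library. Their sum was 2.35 FPKM in CD and 11.0 FPKM in WD total RNA. It was 5.15 and 3.94 FPKM in the light fractions and 25.8 and 32.4 FPKM in the heavy fractions of CD and WD. The part of these cells in the level of any member was not tested.

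On Rnor_6.0, the assembly of the files, the members lay at chr5:165263800-165373967 (Mtor), chr10:108750620-109058691 (Rptor), chr2:56052643-56101803 (Rictor), chr3:7237192-7265145 (Tsc1) and chr10:13915214-13996584 (Tsc2). Rheb lay at chr4:6827429-6873383, Rps6kb1 at chr10:73824202-73865364, Eif4ebp1 at chr16:68954861-68968248, Eif4ebp2 at chr20:31055789-31072469 and Ddit4 at chr20:29509289-29511382. The span of Mtor holds U6 and Angptl7 and that of Tsc2 overlaps Pkd1 and AC093937.1, so reads of these genes may not be fully separated from those of Mtor and Tsc2.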

How the data were processed

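Each of 6 libraries of ribosomal RNA-depleted liver RNA was pooled from 3 rats. The authors aligned the reads to Rnor_6.0 with TopHat, quantified loci with the Cufflinks 2.2.1 pipeline and deposited FPKM values with the lower and upper bound of each. The paper also describes a separate route for ribosome profiling reads, and the sources used here do not settle whether the fractions took it. The annotation is not given in the sources used here. Strand use in counting was not stated.

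The tools were scipy 1.17.1 for intervals, numpy 2.4.6 and pandas 2.3.3 for tables, and matplotlib 3.10.9 for plots, under Python 3.11.15. A ratio is of the authors' FPKM values. A log2 change was taken after adding 0.1 FPKM, and the limits of 1.5 and 0.75, which the study's methods use for ribosome density of CD over WD, were applied to it for WD over CD in every comparison. Of the 33022 loci, 32158 had a symbol and 10201 of these were estimated successfully and averaged 1 FPKM or more. Whole fragment numbers were inferred from 1 step for each gene and 1 factor for each library, within a relative tolerance of 3e-05, which gave numbers for 10214 of 13283 genes (76.9%). Numbers that would need a transcript longer than 1.3 times its locus, or over about 20 kb, were dropped. Where a value had 30 fragments or fewer (41178 values), 83.1% had the relative Cufflinks bound common to that number. Intervals are exact Clopper-Pearson limits for a ratio and exact conditional limits of the odds ratio for ribosome density, at 95%. The steps were tested on simulated data. No test of the diets was possible with 1 library per group.

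The members and gene lists were chosen with earlier results of these data known. Named genes are the 10 members, the genes with the highest or lowest change of ribosome density or abundance in each list, and the 3 loci most like Mtor, Eif4ebp1 and Eif4ebp2. Other list genes (Deptor, Prr5, Mapkap1, Akt1, Prkaa2, Slc38a9, Lamtor5, Rps6, Eif4e, Eif4g2 and Fkbp8) were named after their values were seen, for their role, their interval or their direction. Alternatives were pseudocounts of 1 and 0.01 FPKM, rescaling of the libraries to the same sum over loci with a symbol, centring on the median of all loci, a mean of at least 10 FPKM, no filter, the sum of loci with a symbol, and total RNA as the denominator. RefSeq sequences of GRCr8 were used for transcript starts only. Protein sequences were not used here.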

Additional observations from a re-analysis of the deposited data

Results flagged for a closer look

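The WD over CD ratio of Rheb in the heavy fraction (1.52) divided by that in the light fraction (0.449) was 3.38, with an exact counting interval of 1.20 to 9.91. It is listed because the difference between the fractions exceeded counting error, which compares pooled libraries and not rats. No group had more than 1 library, so none was searched for a sample that stands apart.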

How the results depend on the processing

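No paired analysis was possible because each group had 1 library. For the 8 members with a counting interval, 333 of 336 changes under the alternatives moved by less than 0.5 of its width on the log2 scale. These intervals are wide, so that the ribosome density change of Tsc1 went from -0.40 to 0.98 within its own. For Mtor and Tsc2, 78 such changes had no interval to be read against. The ribosome density change of Rheb was not seen with total RNA as the denominator, where it was -0.030 on the log2 scale, a ratio of 0.980. The counts of members that follow have no share of all loci beside them, as it was not counted under the alternatives. With total RNA as the denominator, 2 members had a ratio of at most 0.75 in the CD distribution and 5 in the WD distribution. With libraries rescaled to the same sum, 6 members were at 0.75 or less in the light fraction, 0 reached 1.5 in the heavy fraction and 2 reached 1.5 in ribosome density. With a pseudocount of 1 FPKM, 0 reached 1.5 in the heavy fraction. With a mean of at least 10 FPKM, which 4 members had, 0 were at 0.75 or less in abundance, 2 were at 0.75 or less in the heavy fraction, and 0 reached 1.5 in either heavy over light ratio, since fewer genes were counted. The cause was not tested for the others. Counts under a pseudocount of 0.01 FPKM, centring, no filter and summed loci stayed within 1.5 times those given. The lowest fragment numbers of the members were in the heavy fraction, where Eif4ebp2 had 1 fragment in each diet and Eif4ebp1 had 6 and 2. The library with the fewest inferred fragments was not a heavy one but the CD light fraction, where Eif4ebp2 had 95.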
